A study of Homo sapiens with 10 samples.

Results

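E2A was compared with the empty vector in Kasumi-1, an established line of human myeloid leukemia cells whose 8;21 translocation joins RUNX1 (AML1) to RUNX1T1 (ETO). The comparison rests on 1 RNA library of cells that overexpressed HA-tagged E2A and 1 of cells that carried the MigR1 control vector. Both received a retrovirus that also marks cells with GFP, and RNA was taken from sorted GFP-positive cells 4 days after infection. The promoter that drove the introduced factor is not given in the sources used here, and all cells come from this 1 line. Libraries of cells with HEB or E2-2, made in the same way, are the other RNA libraries of the study and serve here as values beside E2A. Members are the genes with 30 or more reads in the E2A and vector libraries together, 13901 of 50868 genes in the table.

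E2A is the product of TCF3, HEB of TCF12 and E2-2 of TCF4. These E proteins are basic helix-loop-helix transcription factors that bind, as pairs, to DNA words called E-boxes, which read CANNTG. ID proteins pair with E proteins but lack the basic region, so the pair does not bind DNA. E2A is best known for its role in early B and T cell development, and in t(8;21) leukemia AML1-ETO acts in a complex that holds E proteins.

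Counted reads were scaled to CPM, reads per 1000000 of the scaled library. Each group has 1 library, so nothing could be checked on replicates and no p-value is given. Intervals in parentheses are 95% exact counting intervals of the fold and leave out differences between cultures. Calls, higher or lower, were made for folds of 2 or more whose interval excluded 1. These calls describe the 2 libraries, not the conditions. A count of 0 was set to 3 reads per library, which makes the fold a lower bound. In a sorted population, more cells with an RNA and more of it per cell cannot be told apart.

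Of the 13901 genes, 680 (4.89%) were called higher and 220 (1.58%) lower in E2A, 6.47% in either direction. The median log2 fold over all measured genes was -0.01, and the 5th and 95th percentiles were -0.66 and 1.00. The folds were not alike in both directions. Of the genes called higher, 271 reached 4-fold above vector, 133 of them 10-fold and 26 of them 50-fold. Of those called lower, 2 reached 4-fold below vector, LINC00211 and the pseudogene CDK2AP2P2. The median fold of called genes was 3.23 on the higher side and 2.30 on the lower.

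Genes called higher were mostly weakly expressed in vector cells. Their median vector level was 1.48 CPM, against 24.2 CPM over all measured genes and 3.43 CPM for genes called lower. Of the measured genes, 81 had 3 or fewer reads in vector, and these could be measured only through their reads in E2A. All 81 were therefore called higher, which the rule fixed. Among the 12082 genes with 30 or more reads in vector alone, 289 (2.39%) were called higher and 166 (1.37%) lower. In the fifth of genes with the lowest mean level, 11.5% were called higher and 5.29% lower, and in the fifth with the highest level 1.22% and 0.108%. Summed over the genes called higher, the level was 6847 CPM in vector and 23066 CPM in E2A. Over the genes called lower it was 2461 CPM in vector and 1085 CPM in E2A.

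**Figure D1:**
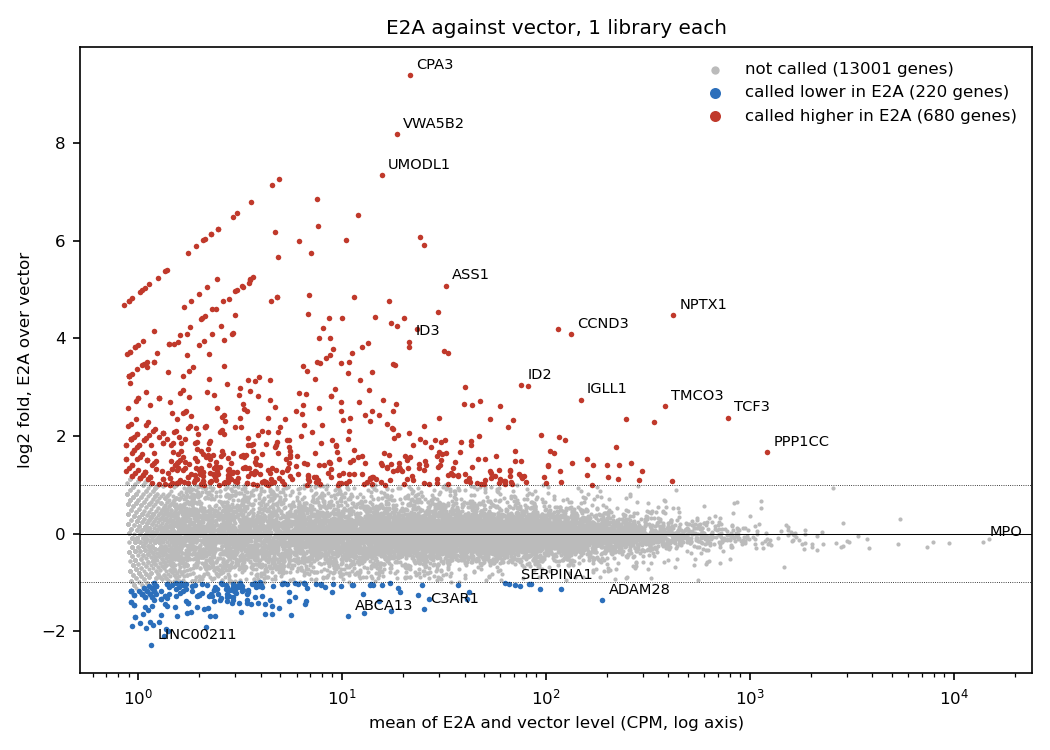
Log2 fold of E2A over vector (vertical axis) against the mean of the E2A and vector levels in CPM (horizontal log axis), 1 point per measured gene, red for called higher, blue for called lower, gray for not called. Dotted lines mark the 2-fold thresholds, and genes without reads in vector are drawn at their lower bound. CPA3 lies highest at a log2 fold of 9.39 and LINC00211 lowest at -2.28.

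The libraries held 15728974 counted reads for vector, 17673090 for E2A, 16791922 for HEB and 14816708 for E2-2, and 3 reads stood for 0.170 to 0.198 CPM. Of 27 housekeeping genes none was called, with a median log2 fold of -0.07, and none of the 15 mitochondrially encoded genes was called. RNA of the translocation partners was present: RUNX1T1 had 3235 reads in vector and 3036 in E2A, and RUNX1 9659 and 9052. MPO, the myeloperoxidase of myeloblasts, had 231819 and 232710 reads. CD34, a progenitor surface protein, had 3942 reads in vector and 2638 in E2A, 1.69-fold lower (1.61 to 1.78) and not called.

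Stretches of DNA before the RefSeq start sites of some of the called genes show what E-boxes look like there. Each runs 5′ to 3′ over the 250 bases before the start, from RefSeq on GRCh38.p14, with every CANNTG in capitals. Of 18 such stretches looked at, 13 hold a CANNTG and 5 hold none. The 6 shown were chosen as examples after their letters were seen. TTYH2, TNFRSF18, SSX1, MC1R, COBLL1, CCND3 and UMODL1 also hold 1 or 2 each and are not shown. Where RefSeq lists several start sites of a gene, the first in its table was used. CPA3 lies on the plus strand at chr3:148865046-148865295, MYBPH on the minus strand at chr1:203175827-203176076 and TTLL10 on the plus strand at chr1:1173630-1173879. ID2 lies on the plus strand at chr2:8681806-8682055, PRDM1 on the plus strand at chr6:106086086-106086335 and RAB7B, which was called lower, on the minus strand at chr1:206003396-206003645.
CPA3: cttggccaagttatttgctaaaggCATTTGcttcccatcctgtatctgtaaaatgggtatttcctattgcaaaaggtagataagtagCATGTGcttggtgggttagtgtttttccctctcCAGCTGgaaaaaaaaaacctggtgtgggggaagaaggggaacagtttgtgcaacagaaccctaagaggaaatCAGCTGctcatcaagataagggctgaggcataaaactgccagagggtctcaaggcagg
MYBPH: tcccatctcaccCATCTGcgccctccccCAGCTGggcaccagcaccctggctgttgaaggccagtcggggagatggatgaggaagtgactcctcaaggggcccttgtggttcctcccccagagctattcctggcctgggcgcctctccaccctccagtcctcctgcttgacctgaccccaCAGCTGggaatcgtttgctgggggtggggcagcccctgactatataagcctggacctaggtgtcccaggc
TTLL10: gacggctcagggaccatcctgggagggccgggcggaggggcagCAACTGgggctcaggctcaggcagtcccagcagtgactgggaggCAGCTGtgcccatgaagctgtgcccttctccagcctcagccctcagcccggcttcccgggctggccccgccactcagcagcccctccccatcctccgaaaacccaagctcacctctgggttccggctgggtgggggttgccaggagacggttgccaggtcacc
ID2: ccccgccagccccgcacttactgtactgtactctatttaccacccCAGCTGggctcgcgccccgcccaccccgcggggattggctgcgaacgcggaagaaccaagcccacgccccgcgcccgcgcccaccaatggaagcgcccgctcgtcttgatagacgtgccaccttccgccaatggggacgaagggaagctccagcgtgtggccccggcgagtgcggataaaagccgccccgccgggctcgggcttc
PRDM1: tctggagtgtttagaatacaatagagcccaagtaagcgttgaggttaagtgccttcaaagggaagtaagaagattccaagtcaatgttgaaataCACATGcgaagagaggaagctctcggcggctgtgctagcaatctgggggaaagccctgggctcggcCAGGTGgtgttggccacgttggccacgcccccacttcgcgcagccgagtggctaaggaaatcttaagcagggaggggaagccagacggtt
RAB7B: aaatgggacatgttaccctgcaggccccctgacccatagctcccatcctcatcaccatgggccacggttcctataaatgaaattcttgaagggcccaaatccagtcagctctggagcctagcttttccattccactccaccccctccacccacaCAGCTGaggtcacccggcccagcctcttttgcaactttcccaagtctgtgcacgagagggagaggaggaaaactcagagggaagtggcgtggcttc

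The CPA3 stretch holds 4 E-boxes, of which 2 read CAGCTG, and the MYBPH stretch holds 3, of which 2 read CAGCTG. The same word occurs once in the ID2 stretch and once in that of RAB7B, a gene called lower. The 250 bases before the starts of ID3, LRRC15, CREB3L1 and C3AR1, the last called lower, hold no CANNTG, and neither do those before the first listed of 2 start sites of VWA5B2. A match is a description of letters and does not show binding.

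RefSeq promoter windows, 250 bases before to 50 after the start, were matched for 440 of the 680 genes called higher (64.7%), 134 of the 220 called lower (60.9%) and 10232 of all measured genes (73.6%). Fewer than 80% of the called genes had a window, so a check of promoter words over the called genes is void, and the shares that follow describe the matched windows alone. CAGCTG, which reads the same on both strands, stood in 26.4% of windows of genes called higher, 17.9% of those called lower and 16.8% of all measured genes. CAGGTG, counted on either strand, stood in 29.5%, 21.6% and 18.2%. CACGTG, the E-box favored by MYC and MAX, stood in 7.73%, 4.48% and 10.3%. Any CANNTG, which includes these words, stood in 68.6%, 67.2% and 59.9%. Over all 27305 RefSeq windows the shares were 17.7% for CAGCTG, 20.6% for CAGGTG, 7.43% for CACGTG and 68.9% for CANNTG. The GC content of the windows was 65.8% for genes called higher, 60.7% for those called lower, 64.6% for all measured genes and 57.2% for all RefSeq windows, and its part in these shares was not tested.

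TCF3, the gene introduced, had 3934 reads in vector and 23186 in E2A, 5.20-fold (5.03 to 5.38) higher, as the label of the E2A library says. It had 4201 reads in HEB and 3039 in E2-2, both close to vector. TCF3 lies on chromosome 19 at 1609290 to 1652605 on GRCh38, and reads of the introduced and the resident copy are counted together. TCF12 had 2568 reads in vector and 2971 in E2A, 1.02-fold (0.969 to 1.08) and not called. TCF4 had 4 reads in both libraries and was not measured. Kasumi-1 cells of the vector library thus held RNA of TCF3 and TCF12 and almost none of TCF4.

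Of the ID genes, ID2 and ID3 were called higher in E2A and ID1 was not. ID2 had 256 reads in vector, 2386 in E2A, 456 in HEB and 2506 in E2-2, and the E2A level was 8.23-fold (7.23 to 9.40) above vector. ID3 had 41, 709, 241 and 1360 reads in the same order, 15.3-fold (11.1 to 21.5) in E2A. For both genes vector was lowest and E2-2 highest. ID1 had 459 reads in vector and 497 in E2A, 1.05-fold lower (0.920 to 1.19), and ID4 had 0 reads in both, a count that leaves room for up to 3 reads per library. Of 36 tissue-restricted helix-loop-helix partners of E proteins, 7 were measured. ATOH8 was called higher and OLIG1 lower, and the other 5 were not called.

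The genes with the largest folds were close to silent in vector cells. CPA3, the carboxypeptidase of mast cell granules, had 1 read in vector, 758 in E2A, 98 in HEB and 486 in E2-2, a ratio of E2A to vector of 669 (120 to 26460). VWA5B2 had 2, 656, 359 and 2563 reads, a ratio of 290 (79.8 to 2396). UMODL1 had 3, 550, 144 and 262 reads, a ratio of 162 (55.1 to 787). In all 3 genes vector was the lowest library, and E2A was the highest for CPA3 and UMODL1 while E2-2 was the highest for VWA5B2. PRDM1, the repressor BLIMP1 that directs plasma cell formation, had 2 reads in vector, 264 in E2A, 146 in HEB and 563 in E2-2, 117-fold (31.9 to 967). TNFRSF18, the receptor GITR of activated T cells, had 0 reads in vector and 172 in E2A, at least 50.6-fold higher. It had 29 reads in HEB and 17 in E2-2, both above vector and below E2A.

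Several of the leading genes had more reads in vector and so narrower intervals. COBLL1 had 11 reads in vector and 838 in E2A, 67.3-fold (37.4 to 135). TTYH2, which codes for a membrane protein of the tweety family, had 13 and 882 reads, 59.9-fold (34.8 to 113). ASS1, the argininosuccinate synthase of arginine synthesis, had 29 and 1112 reads, 33.9-fold (23.4 to 50.8), with 113 in HEB and 233 in E2-2. CREB3L1, a transcription factor anchored in the endoplasmic reticulum, had 5 and 365 reads, 64.4-fold (27.4 to 200). NXPH3 had 4 and 419 reads, 92.5-fold (35.9 to 341), and SSX1, a cancer-testis gene of the X chromosome, 1 and 173 reads, 153-fold (27.1 to 6067). SSX1 had 2 reads in HEB and 21 in E2-2. LRRC15 had 0 reads in vector and 130 in E2A, at least 38.3-fold higher, with 9 in HEB and 8 in E2-2. TTLL10, with 0 reads in vector and 108 in E2A, was at least 31.8-fold higher and had 9 reads in HEB and 0 in E2-2. MYBPH, with 0 and 106 reads, was at least 31.2-fold higher, and its reads were more numerous in HEB (178) and E2-2 (384).

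**Figure D2:**
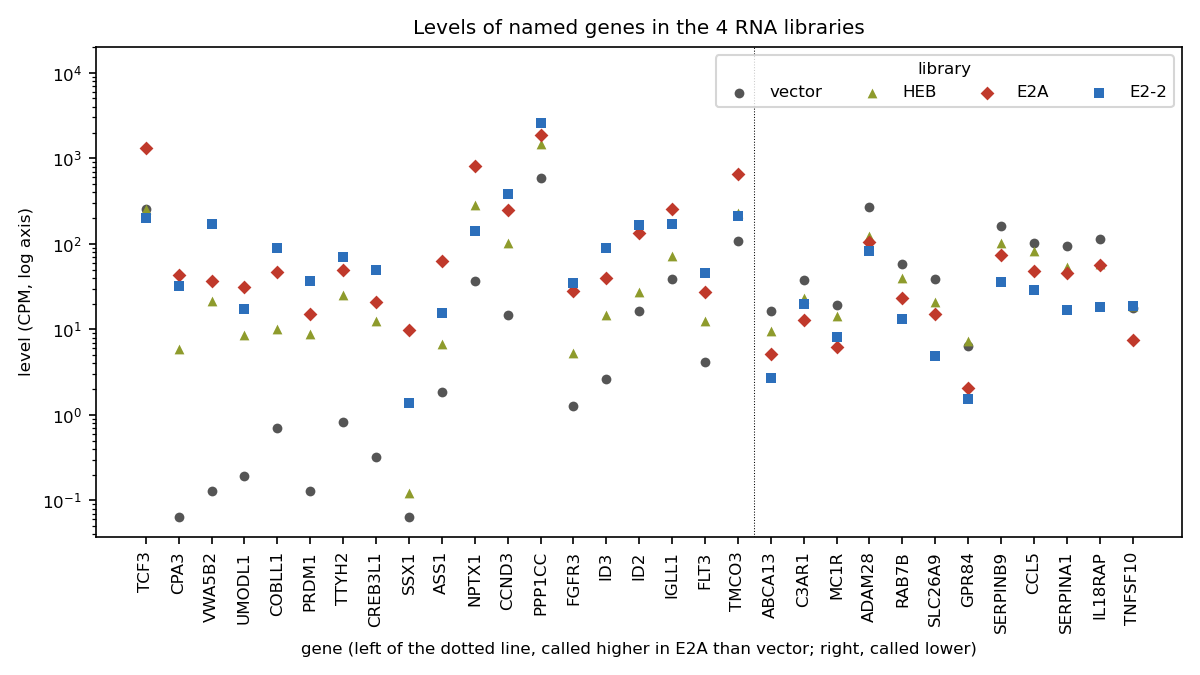
Level in CPM (vertical log axis) of named genes in the 4 RNA libraries, 1 point per library (gray circle vector, olive triangle HEB, red diamond E2A, blue square E2-2). A library without reads has no point. E2A stands above vector for every gene left of the dotted line and below it for every gene to the right, which the choice of genes fixes. E2-2 lies above E2A for several genes, among them VWA5B2, COBLL1 and PRDM1.

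In units of CPM gained, PPP1CC was first, followed by TCF3 itself and NPTX1. PPP1CC, a catalytic subunit of protein phosphatase 1, had 9086 reads in vector and 32876 in E2A, 583 and 1861 CPM, 3.19-fold (3.12 to 3.27). NPTX1, a secreted neuronal pentraxin, had 566 and 14233 reads, 36.3 and 806 CPM, 22.2-fold (20.4 to 24.2). For NPTX1 the E2A library was also above HEB, with 4724 reads, and E2-2, with 2113. TMCO3, TRH, GPD1L, RNF213, TACC3, PAG1 and SLBP were the other genes with the largest gains. TRH, the thyrotropin-releasing hormone, had 1792 reads in vector and 9942 in E2A, 4.90-fold (4.66 to 5.15), GPD1L 1269 and 7286, 5.07-fold (4.78 to 5.38), and PAG1 1561 and 6053, 3.42-fold (3.24 to 3.62). RNF213 had 4187 and 9952 reads. For each of these genes apart from TCF3 the vector library was the lowest of the 4.

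The genes called lower that ranked first by their interval bound included receptors, transporters and a protease. ADAM28, a membrane metalloprotease of leukocytes, had 4242 reads in vector, 1877 in E2A, 2068 in HEB and 1242 in E2-2, 2.56-fold (2.42 to 2.70) lower in E2A. C3AR1, the receptor of complement fragment C3a, had 588, 227, 383 and 297 reads, 2.93-fold (2.51 to 3.44) lower. ABCA13 had 256, 90, 157 and 41 reads, 3.22-fold (2.53 to 4.14) lower. Vector was the highest library for these genes, and E2A was the lowest for C3AR1 only. RAB7B, a small GTPase of late endosomes, had 916 reads in vector and 410 in E2A, 2.53-fold (2.25 to 2.85), and its chromosome 1 neighbor SLC26A9, an anion transporter, 598 and 268 reads, 2.53-fold (2.19 to 2.93). MC1R, the melanocortin receptor, had 304 and 111 reads, 3.10-fold (2.49 to 3.89), and GPR84, a receptor of medium-chain fatty acids, 100 and 36, 3.15-fold (2.13 to 4.74). For GPR84 HEB, with 122 reads, was not below vector.

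Other genes called lower with many reads in vector lay close to the 2-fold threshold. SERPINB9, an inhibitor of granzyme B, had 2550 reads in vector and 1310 in E2A, 2.21-fold (2.06 to 2.36) lower, and SCPEP1 2021 and 1038, 2.21-fold (2.05 to 2.38). SERPINA1, alpha-1-antitrypsin, had 1480 and 811 reads, 2.07-fold (1.90 to 2.26), and the chemokine CCL5 1591 and 854, 2.11-fold (1.94 to 2.30). IL18RAP, a subunit of the interleukin 18 receptor, had 1784 and 988 reads, 2.05-fold (1.89 to 2.21). In E2-2, CCL5 had 434 reads, SERPINA1 256 and IL18RAP 276, fewer than in E2A for each. TNFSF10, the death ligand TRAIL, had 279 reads in vector, 134 in E2A, 310 in HEB and 287 in E2-2, and only in E2A did its level lie below vector by 2-fold or more (2.36, 1.91 to 2.92).

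The 2-fold threshold separated genes with nearly the same fold. Just inside it were STON2 at 2.001-fold and JDP2 at 2.004-fold higher, and just outside were PLXNC1 at 1.999-fold and KCNJ11 at 1.997-fold. On the lower side FOSB lay at 2.001-fold and the neuropeptide GAL at 2.003-fold.

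Gene lists were read by how many of their measured members were called and by their median log2 fold, beside 4.89% higher, 1.58% lower and a median of -0.01 over all measured genes. A listed gene with few vector reads counts as measured only where E2A held enough reads, so neither a list's count nor its median is read as support.

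Among cell cycle genes, 1 cyclin gene stood far above vector in E2A and the mitosis genes lay slightly above it together. Of 35 measured genes of G1 to S phase and replication, only CCND3 was called, and the list's median log2 fold was 0.04. CCND3, the cyclin D3 that drives cells out of G1, had 229 reads in vector, 4418 in E2A, 1708 in HEB and 5874 in E2-2, 17.0-fold (14.9 to 19.5) in E2A. None of 31 mitosis genes was called, but all 31 lay above 0, with log2 folds from 0.04 to 0.66 and a median of 0.37. MKI67, a marker of dividing cells chosen with TOP2A and PLK1 after the values were seen, had 10304 reads in vector and 18053 in E2A, 1.55-fold (1.51 to 1.59). TOP2A, the DNA topoisomerase of dividing cells, had 10566 and 18830 reads, 1.57-fold (1.54 to 1.61), and PLK1, a kinase of mitosis, 1943 and 2603, 1.18-fold (1.12 to 1.26). The median of the mitosis list was 0.29 in HEB and 0.56 in E2-2 against the same vector library. Among 29 measured cell cycle inhibitors and p53 targets, BTG2, CDKN2D and FAS were called higher and TNFRSF10B lower. BTG2, an antiproliferative gene, had 22 and 78 reads, 3.13-fold (1.93 to 5.28). BIK and BCL2 were called among 28 apoptosis regulators, BCL2 at 516 and 1180 reads, 2.02-fold (1.82 to 2.24).

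**Figure D3:**
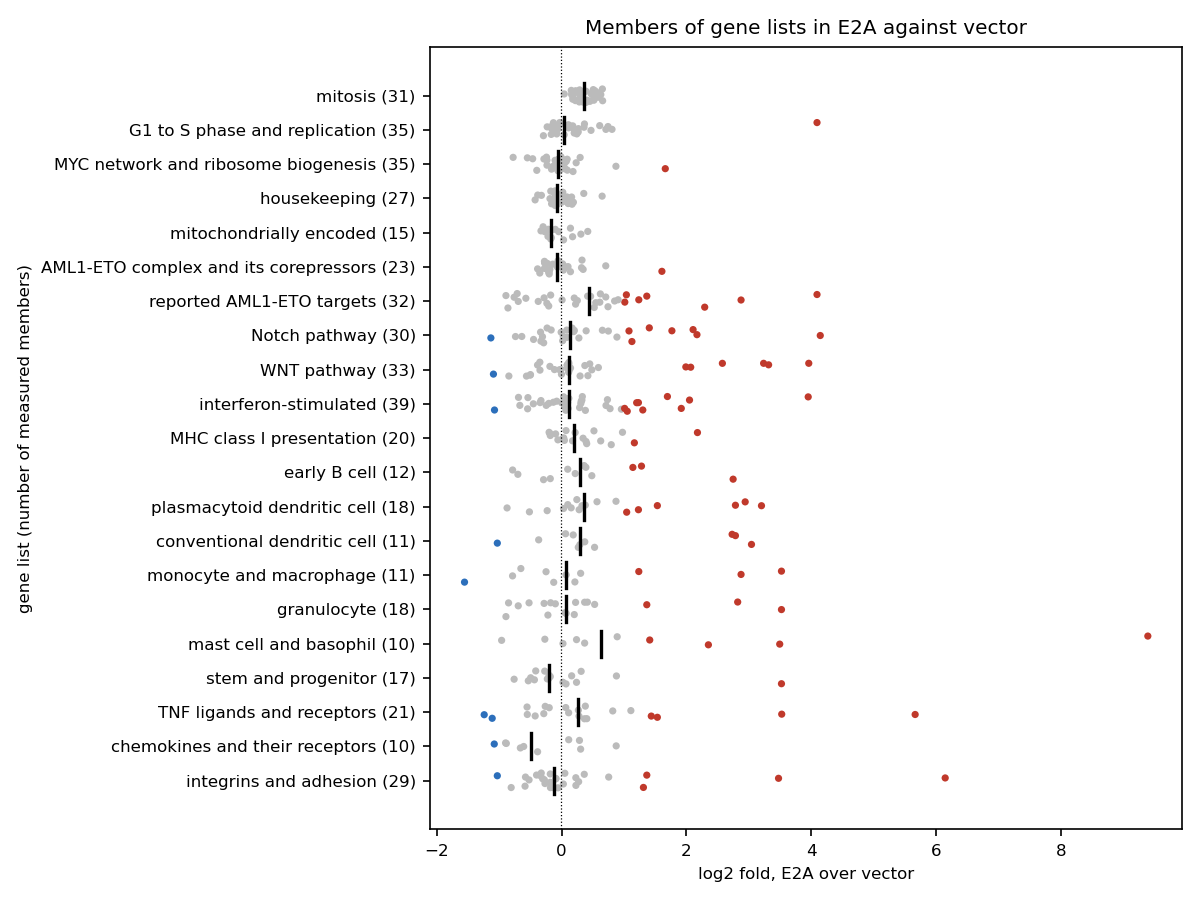
Log2 fold of E2A over vector (horizontal axis) for the measured members of 21 gene lists (rows, with the number of measured members), 1 point per gene, red for called higher, blue for called lower, gray for not called. Black bars are list medians and the dotted line is the median of all measured genes. The mitosis genes form a tight row between 0.04 and 0.66 while most other lists hold a few far-off members.

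Some lymphoid genes were called higher. Of 29 early B cell genes, 12 were measured and IGLL1, CD79A and RAG1 were called higher. IGLL1, the lambda5 surrogate light chain, had 601 reads in vector, 4569 in E2A, 1199 in HEB and 2558 in E2-2, 6.71-fold (6.16 to 7.32), and E2A was its highest library. CD79A, a signalling chain of the B cell receptor, had 30 and 75 reads, 2.21-fold (1.43 to 3.49), and RAG1, the recombinase, 12 and 33, 2.43-fold (1.22 to 5.16). The B cell master regulator PAX5 had 64 and 95 reads, 1.31-fold (0.945 to 1.83), and was not called. EBF1 had 0 reads in both libraries and VPREB1 1 in each, so these defining markers were at or near 0. Of 35 T and NK cell genes 5 were measured. CD4 was called higher, with 633 and 1504 reads, and CD3D lower, with 34 and 10, 3.85-fold (1.86 to 8.74). CD3E, with 9 and 5 reads, was not measured. In the plasma cell list, PRDM1 and MZB1 were called among 20.

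The mast cell and basophil list held 10 measured genes of 28, with 4 called higher and a median log2 fold of 0.63. Of the 10, 5 had under 30 reads in vector. Among the other 5, 1 was called higher and the median was 0.24. Beside CPA3, these were FCER1G, the gamma chain shared by Fc receptors, with 20 reads in vector and 255 in E2A, 11.3-fold (7.14 to 18.7), PTGDR2, a prostaglandin D2 receptor, with 27 and 156, 5.10-fold (3.38 to 7.99), and ALOX5, the 5-lipoxygenase of leukotriene synthesis, with 134 and 404, 2.66-fold (2.18 to 3.26). The tryptase gene TPSAB1 had 9 and 13 reads, HDC 15 and 10, MS4A2 2 in each, and CMA1 and FCER1A 0 in each. KIT, the stem cell factor receptor, had 10171 and 13607 reads, 1.18-fold (1.15 to 1.21).

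Dendritic cell and myeloid lists held single strong members. Of 31 plasmacytoid dendritic cell genes, 18 were measured and 6 called higher: PLAC8, MZB1, IRF8, TNFRSF21, IRF7 and NRP1. Of the 18, 3 had under 30 reads in vector, and among the other 15, 3 were called higher. Among members not measured, CLEC4C had 0 reads in vector and 2 in E2A, LILRA4 0 in each, TLR7 1 and 0 and PACSIN1 3 and 20. PLAC8 had 49 reads in vector and 426 in E2A, 7.68-fold (5.70 to 10.5), MZB1, a chaperone of immunoglobulin assembly, 12 and 125, 9.20-fold (5.08 to 18.3), and IRF8, a transcription factor of dendritic cells and monocytes, 5 and 39, 6.89-fold (2.71 to 22.4). In the conventional dendritic cell list, ID2, FLT3 and IRF8 were called higher and ITGAX lower among 11. In the monocyte list S100A8, CSF1R and EGR1 were called higher and C3AR1 lower among 11. Of the monocyte genes not measured, CD14 had 3 reads in vector and 2 in E2A, CD68 0 in each and LILRB2 1 and 17. In the granulocyte list S100A8, CEACAM6 and ITGB2 were called higher among 18. S100A8, with 0 reads in vector and 39 in E2A, was at least 11.5-fold higher. The medians of these 4 lists lay between 0.07 and 0.35. Of 17 stem and progenitor genes only ADGRG1 was called, and their median was -0.20.

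Of 27 measured RAS, growth factor and cytokine receptor genes, 4 were called higher, FLT3, CSF1R, EPOR and INSR, 14 lay above 0 and the median log2 fold was 0.09. FLT3, a receptor of early progenitors, had 65 reads in vector, 489 in E2A, 207 in HEB and 692 in E2-2, 6.64-fold (5.12 to 8.74). CSF1R, the receptor of macrophage growth factor, had 23, 191, 113 and 646 reads, 7.33-fold (4.74 to 11.8). FGFR3, a fibroblast growth factor receptor that is not counted among these 4, had 20, 491, 87 and 524 reads, 21.7-fold (13.9 to 35.8). In FLT3, CSF1R and FGFR3, vector was lowest, HEB next, then E2A, and E2-2 highest. The erythropoietin receptor EPOR had 116 and 536 reads, 4.08-fold (3.33 to 5.03), and the insulin receptor INSR 37 and 98, 2.34-fold (1.59 to 3.51). Of 31 feedback inhibitors of signalling, SOCS1 and PIM1 were called, with 4 and 34 reads and 92 and 296 reads. Among 21 TNF family genes, TNFRSF18, LTB, TNFRSF21 and FAS were called higher and TNFSF10 and TNFRSF10B, the latter a receptor of the former, lower. Of the 21, 8 had under 30 reads in vector. Among the other 13, 1 was called higher and 2 lower, and the median log2 fold was -0.20. LTB, lymphotoxin beta, had 27 and 352 reads, 11.5-fold (7.78 to 17.7). TNFRSF10B had 404 and 212, 2.16-fold lower (1.82 to 2.56).

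The Notch pathway, in which a ligand on a cell activates a receptor on its neighbor, had 30 measured genes of 39, with 7 called higher, 1 lower and a median log2 fold of 0.13. Of the 30, 5 had under 30 reads in vector. Among the other 25, 2 were called higher and 1 lower, and the median was 0.03. Of the ligands, DLL4 had 2 reads in vector and 40 in E2A, a ratio of 17.7 (4.58 to 151), JAG2 24 and 117, 4.30-fold (2.76 to 6.99), and DLL1 13 and 39, 2.65-fold (1.38 to 5.41). LFNG, a glycosyltransferase that modifies the receptors, had 11 and 56 reads, 4.49-fold (2.33 to 9.51). The receptor NOTCH3 was called lower, with 58 and 30 reads, 2.19-fold (1.39 to 3.53), while NOTCH1 had 1024 and 1825, 1.57-fold higher (1.46 to 1.70), and was not called. Of the HES and HEY family genes in the list, HEYL had 195 and 752 reads, 3.40-fold (2.90 to 4.01), HES6 408 and 977, 2.11-fold (1.88 to 2.38), and HES1 19 and 47, 2.18-fold (1.26 to 3.94).

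In the WNT pathway, of 33 measured genes the receptors LGR6, LGR4 and FZD8, the ligands WNT9A and WNT4 and the inhibitor NKD2 were called higher, and AXIN2, a target and inhibitor of the pathway, lower. Of the 33, 9 had under 30 reads in vector. Among the other 24, 1 was called higher and 1 lower, and the median log2 fold was -0.004. NKD2 had 40 reads in vector and 451 in E2A, 9.95-fold (7.20 to 14.1), and AXIN2 62 and 33, 2.13-fold lower (1.37 to 3.35). WNT9A had 5 and 88 reads, 15.5-fold (6.41 to 49.0). Of 32 TGF-beta and BMP genes, only CHRD was called, the secreted BMP antagonist chordin, with 2 reads in vector and 164 in E2A, a ratio of 72.4 (19.7 to 603).

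Interferon-stimulated genes were mixed in E2A. Of 39 measured, 9 were called higher and GBP4 lower, and the median log2 fold was 0.12, against 0.96 in E2-2 and -0.15 in HEB for the same genes over the same vector library. MX2 had 2 reads in vector and 35 in E2A, a ratio of 15.5 (3.97 to 133), OAS3 16 and 75, 4.14-fold (2.39 to 7.61), and IRF7, the regulator of interferon genes, 117 and 311, 2.35-fold (1.89 to 2.93). IFIT1 had 521 and 405 reads, 1.46-fold lower (1.28 to 1.66), and was not called. PSMB9 and NLRC5 were called among 20 genes of MHC class I presentation, and none among 8 of MHC class II.

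Of 32 genes reported as AML1-ETO targets, 7 were called higher and none lower, with a median log2 fold of 0.44: CCND3, CSF1R, TRH, ITGB2, EGR1, RUNX3 and BCL2. RUNX3 had 470 reads in vector and 1093 in E2A, 2.05-fold (1.84 to 2.29), and ITGB2, the beta chain of leukocyte integrins, 146 and 426, 2.58-fold (2.13 to 3.13). Of 23 genes of the AML1-ETO complex and its corepressors, CBFA2T3, a relative of ETO, was called, with 131 and 452 reads, 3.05-fold (2.50 to 3.73), and the median was -0.07. Of 35 genes of the MYC network and ribosome biogenesis only MXD3 was called, with 244 and 874 reads, 3.16-fold (2.74 to 3.66), and the median was -0.05.

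Among 31 immediate early and heat shock genes, HSPA1A, HSPA1B, EGR1 and HMOX1 were called higher and FOS and FOSB lower. HSPA1A, an inducible chaperone of the HSP70 family, had 534 reads in vector, 1488 in E2A, 566 in HEB and 537 in E2-2, 2.46-fold (2.23 to 2.72), and HSPA1B 355, 909, 385 and 349, 2.26-fold (2.00 to 2.56). For both genes, which are near-identical copies and may share reads, E2A stood apart from the other 3 libraries. FOS had 75 reads in vector and 36 in E2A, 2.36-fold lower (1.57 to 3.62). KRT17 and KRT16, keratins of epithelia, were called among 4 measured keratins of 22. Of the 4, 3 had under 30 reads in vector, and the other was not called. The pseudogenes KRT17P1 and KRT17P2 were also called higher, and whether they share reads with KRT17 was not tested. KRT17 had 1 read in vector and 107 in E2A, a ratio of 94.5 (16.6 to 3765). KRT16, with 0 and 64 reads, was at least 18.8-fold higher. Of 23 epithelial, fibroblast or packaging cell markers 8 were measured and FBN1 alone was called, with a median log2 fold of -0.21 over the 8.

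Of the measured adhesion genes, 13.8% were called higher and 3.45% lower, beside 4.89% and 1.58% over all measured genes. Of 29 measured, the tetraspanins CD9 and CD82 and the integrins ITGB2 and ITGA3 were called higher and ITGAX lower, and the median was -0.12. CD9 had 1 read in vector and 80 in E2A, a ratio of 70.6 (12.3 to 2824), and CD82 46 and 579, 11.1-fold (8.22 to 15.4). Of 10 measured chemokines and receptors only CCL5 was called, lower, and the median was -0.50. In the remaining lists, TLR6 was called lower among 24 Toll-like receptor and NF-kB genes. UNC5B, EPHB6, EFNB1 and NRP1 were called higher among 31 axon guidance genes. ELOVL6 was called higher among 29 genes of cholesterol and fatty acid synthesis, and EPOR higher among 9 erythroid and megakaryocyte genes. H1F0 was called higher and HIST1H2AC lower among 7 histone genes.

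The authors' deposited table annotates genes with KEGG pathways and GO terms. With terms of 20 to 300 measured genes, 225 KEGG terms held 4148 measured genes, of which 4.87% were called higher and 1.08% lower. The terms overlap, so the same gene returns under several, and the median KEGG term had 6.45% called higher. As in the gene lists, a gene with few vector reads counts as measured only where E2A held enough reads. Neither the count nor the median of a KEGG or GO term is therefore read as support. The KEGG term with the largest share called higher was Hematopoietic cell lineage, with 8 of 35 genes (22.9%): CD9, FLT3, CSF1R, EPOR, IL1B, CD33, ITGA3 and CD4. CD33, a myeloid surface antigen, had 441 reads in vector and 1515 in E2A, 3.03-fold (2.73 to 3.38), and IL1B, the cytokine interleukin 1 beta, 156 and 679. CD3D was the only lower gene in that term.

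Terms for signalling and secretion followed. Arachidonic acid metabolism had 4 of 20 genes called higher, PLA2G4D, ALOX5, CYP2E1 and PLB1, and Ovarian steroidogenesis 4 of 20 with the first 2 of these in common. Pancreatic secretion (8 of 41), Gastric acid secretion (7 of 36) and Salivary secretion (6 of 36) shared PRKCB, ADCY7 and PLCB1, genes of protein kinase C, adenylate cyclase and phospholipase C. Inflammatory mediator regulation of TRP channels had 11 of 60 and Neuroactive ligand-receptor interaction 12 of 68, among them the adrenergic receptors ADRA2B and ADRA2C and the purine receptors P2RY2 and P2RY14. Fc epsilon RI signaling had 7 of 49 called higher and Focal adhesion 19 of 127. The median log2 folds of these terms lay between -0.16 and 0.12. Cell cycle had 2 of 111 genes called higher, Oxidative phosphorylation 2 of 112, Ribosome 0 of 123 and Aminoacyl-tRNA biosynthesis 0 of 39, the last with a median log2 fold of -0.16.

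The KEGG term with the largest share called lower was Complement and coagulation cascades, with 5 of 28 genes (17.9%): C3AR1, SERPINA1, ITGAX, CLU and C3. The same term had 4 genes called higher, F2RL3, A2M, ITGB2 and CFD. C3, the central complement component, had 29 reads in vector and 13 in E2A, 2.53-fold lower (1.27 to 5.30). Glycine, serine and threonine metabolism had PSPH, AOC3 and CTH lower and SARDH and PHGDH higher among 26. PSPH, which makes serine, had 523 and 285 reads, 2.08-fold lower (1.80 to 2.41), and SARDH, which breaks down sarcosine, 19 and 297, 13.8-fold higher (8.68 to 23.3).

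The 3068 GO terms held 11500 measured genes, 4.80% called higher and 1.13% lower, and the median term had 5.69% called higher. The term with the largest share called higher was cellular response to vascular endothelial growth factor stimulus, with 10 of 29 genes (34.5%). They were DAB2IP, FLT3, DLL4, PTP4A3, FOXC1, MT1G, DLL1, FLT4, NRP1 and KDR. The receptors of this growth factor had few reads, KDR with 8 reads in vector and 22 in E2A, 2.43-fold (1.04 to 6.31), and FLT4 with 18 and 47, 2.31-fold (1.31 to 4.22). Positive regulation of regulated secretory pathway had 8 of 26 genes called higher and the highest median of all GO terms, 0.54. Its members include FCER1G and the kinase SYK, with 35 and 150 reads, 3.78-fold (2.60 to 5.63). Transmembrane receptor tyrosine kinase activity had 9 of 30 called higher and EPHA1 lower, and extracellular matrix binding 9 of 30. LGALS1, a galectin of the latter term, had 28 reads in vector and 681 in E2A, 21.5-fold (14.7 to 32.6).

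Respiratory burst, the making of oxidants by phagocytes, had 6 of 21 genes called higher, among them NCF1, RAC2 and CYBB. NCF1 and RAC2, subunits of the oxidase, had 169 and 1206 reads, 6.30-fold (5.36 to 7.45), and 521 and 1904 reads, 3.23-fold (2.93 to 3.56). CYBB, the catalytic subunit, had 13 and 42 reads, 2.85-fold. NCF1 has near-identical pseudogene copies, and its count is uncertain for that reason. Of all measured genes with a GO term, 1.13% were called lower. The term with the largest such share, retinoid metabolic process, had 5 of 29 (17.2%): SCPEP1, DHRS9, GPC2, CYP1A1 and CEL. PLB1 was called higher in the same term. DHRS9, a retinol dehydrogenase, had 781 and 425 reads, 2.08-fold (1.85 to 2.35) lower. Interleukin-1 secretion had TLR6, S100A13 and P2RX7 called lower and NOD2 higher among 20.

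By genome position, the share of measured genes called higher ran from 2.53% on chromosome 19 (24 of 949) to 9.75% on chromosome 22 (35 of 359), leaving out the mitochondrial genome. Chromosome 22 stayed at 8.22% without the 6 genes of the group around IGLL1 described below. Chromosome 19 also had the lowest median log2 fold of the nuclear chromosomes, -0.12. It carries many zinc finger genes. The 188 measured there had a median of -0.21, with ZNF816 called higher and ZNF837, ZNF497, ZNF429 and ZNF763 lower. The other 761 genes of chromosome 19 had a median of -0.11, and the 254 zinc finger genes of other chromosomes -0.05.

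**Figure D4:**
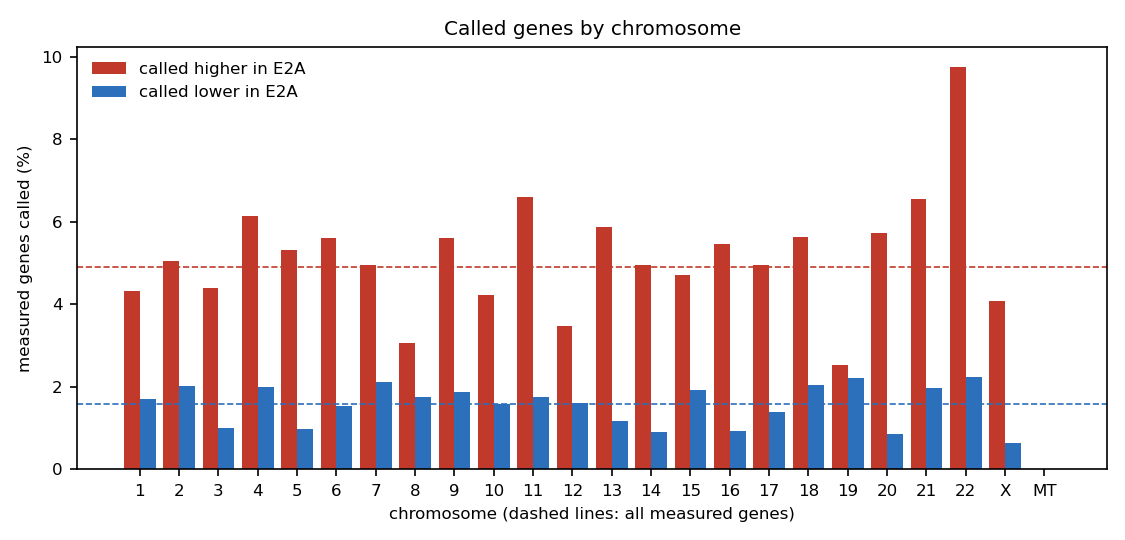
Share of measured genes called higher (red bars) and lower (blue bars) in E2A on each chromosome, in percent, with dashed lines for the shares over all measured genes, 4.89% and 1.58%. Chromosome 22 has the tallest red bar at 9.75% and chromosome 19 the shortest of the nuclear chromosomes at 2.53%.

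Genes called higher that lay near each other, with no more than 100 kb from each to the next and 3 or more in a run, formed 25 groups with 94 genes, 13.8% of those called higher. In 12 of the groups other measured genes that were not called higher lay in the same span. The group of IRF7, EPS8L2 and CRACR2B on chromosome 11 spans 15 measured genes, of which 2 were called lower. Of the 94 genes, 60 had under 30 reads in vector. Such genes are measured only where E2A adds enough reads, so the share of measured genes called in a run is not read as support. Genes called lower formed 4 groups with 12 genes. Overlapping genes, and reads that the counting could not place on a strand, can enter such groups more than once. The largest group was in the T cell receptor beta locus on chromosome 7, from 142299177 to 142470013 on GRCh38, where 8 of 9 measured variable segments were called higher and 7 of the 9 had under 30 reads in vector. TRBV2 had 0 reads in vector and 125 in E2A, at least 36.8-fold higher, TRBV6-6 0 and 115, at least 33.8-fold, and TRBV5-4 5 and 164, 29.0-fold (12.2 to 90.4). TRBV7-3, the exception in the run, had 34 and 51 reads, 1.32-fold (0.842 to 2.11). Variable segments are alike in sequence, so reads may be split between them. An immunoglobulin kappa variable segment was also among the leading genes. IGKV3D-7 had 0 and 126 reads, at least 37.1-fold higher.

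On chromosome 17, from 74213514 to 74607229, all 7 measured genes were called higher: TTYH2, KIF19, GPR142, GPRC5C, CD300A, CD300C and CTD-2006K23.1. All 7 had under 30 reads in vector and so were measured through their reads in E2A. CD300C, an activating receptor of myeloid cells, had 4 reads in vector and 245 in E2A, 54.1-fold (20.9 to 200), and GPR142 7 and 235, 29.6-fold (14.2 to 74.5). CD300A, an inhibitory receptor of the same family, had 6 and 26 reads, 3.83-fold (1.54 to 11.4), and KIF19, a kinesin, 1 and 86, a ratio of 75.9 (13.3 to 3033). The run spans 394 kb and no pair of its genes overlaps. On chromosome 22, all 6 measured genes from 23433564 to 23583859 were called, among them PCAT14, IGLL1 and KB-208E9.1, and 5 of the 6 had under 30 reads in vector. KB-208E9.1, just beyond IGLL1, had 3 reads in vector, 268 in E2A, 17 in HEB and 65 in E2-2, a ratio of 78.9 (26.7 to 385).

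On chromosome 13, from 113455819 to 113554590, all 5 measured genes were called higher, and 3 pairs of them overlap. TMCO3 had 1686 reads in vector, 11705 in E2A, 3759 in HEB and 3222 in E2-2, 6.13-fold (5.82 to 6.45) in E2A. Its neighbor DCUN1D2 had 832, 2960, 1244 and 1034 reads, 3.14-fold (2.91 to 3.40). RP11-230F18.6 and RP11-230F18.5 lie within TMCO3, so their reads and those of TMCO3 may not be told apart. In these genes E2A was above HEB and E2-2, and HEB and E2-2 were above vector.

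On chromosome 16, 6 of 8 measured genes from 3027682 to 3099317 were called higher, among them IL32, an inflammatory cytokine, with 155 reads in vector and 618 in E2A, 3.52-fold (2.95 to 4.23), and the matrix metalloprotease MMP25, with 1457 and 4351, 2.64-fold (2.48 to 2.80). MMP25-AS1, an antisense gene in the run, had 690 and 1171 reads and was not called, and THOC6, at its edge, 592 and 638, 1.05-fold lower (0.938 to 1.18). On chromosome 4, FAM53A, SLBP, TACC3 and FGFR3 were called among 6 measured genes from 1617915 to 1808872. SLBP, which binds histone messenger RNA, had 2201 and 6762 reads, 2.71-fold (2.58 to 2.85), TACC3, a spindle protein, 2694 and 7425, 2.43-fold (2.33 to 2.54), and FAM53A 29 and 623. On chromosome 5, DOK3, an adaptor of immune receptors with 1958 and 5888 reads, 2.66-fold (2.52 to 2.80), and 3 clone-named genes were called among 10 in the span. Of the groups called lower, 1 was that of S100A4, S100A13 and S100A1 on chromosome 1, with 333 and 182, 39 and 17, and 53 and 16 reads.

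**Figure D5:**
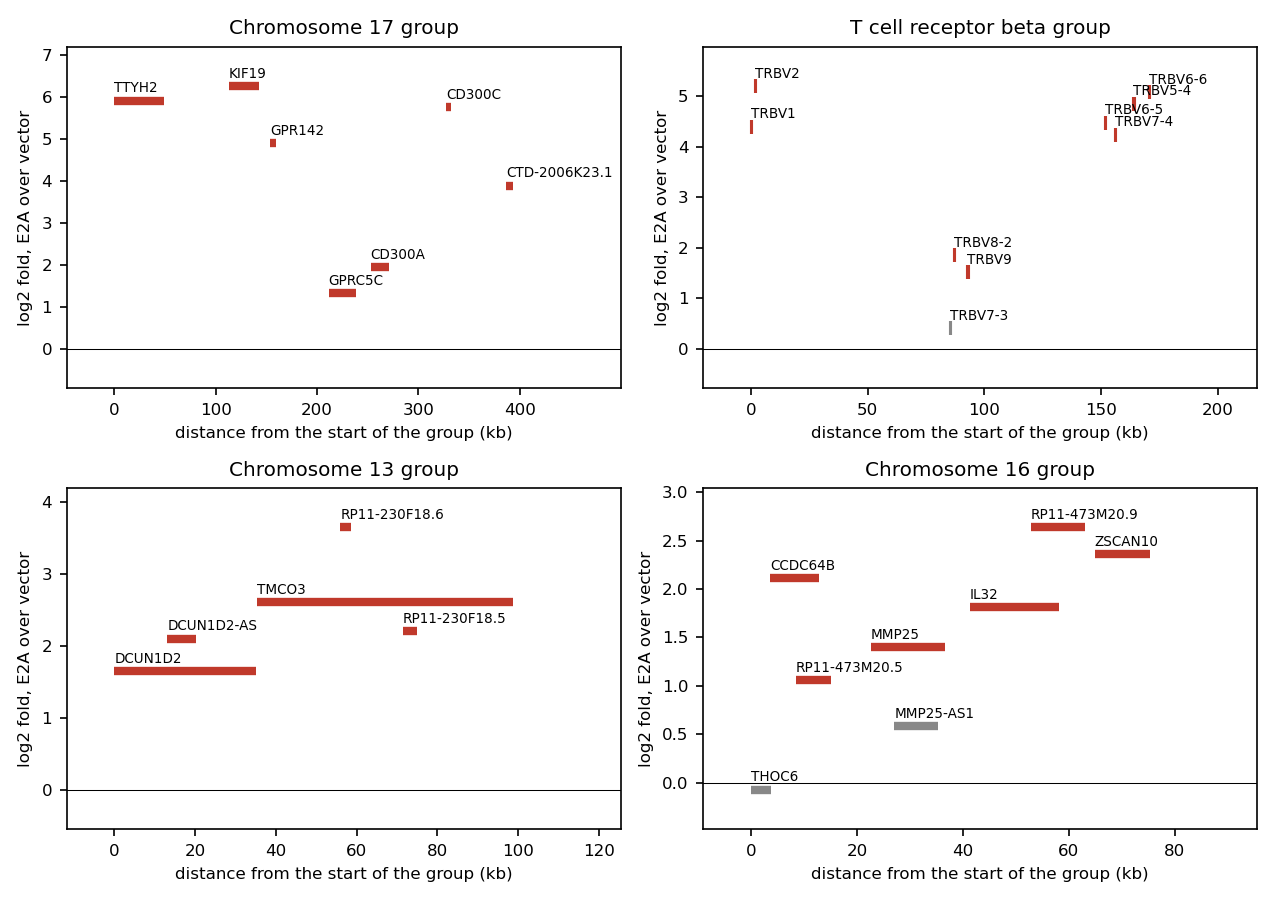
Log2 fold of E2A over vector (vertical axis) against distance from the start of the group in kb (horizontal axis) for the measured genes of 4 groups of neighbors, 1 bar per gene with its length to scale, red for called higher and gray for not called. All 7 genes of the chromosome 17 group and all 5 of the chromosome 13 group lie above 0, while THOC6 in the chromosome 16 group lies just below it.

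The genes called in E2A were then set beside the other E proteins. All 3 comparisons with vector share the vector library, so only the E2A library was set directly against HEB and E2-2. The 680 genes were chosen for their reads in E2A, which favors E2A in this step. The 220 genes called lower were chosen for low levels in E2A, which favors lower calls in E2A here. Against vector, 2.33% of the measured genes were called higher and 1.22% lower in HEB, and 7.12% higher and 3.55% lower in E2-2. Over all measured genes, 2.32% were called higher and 0.504% lower in E2A than in HEB, and 1.63% higher and 2.37% lower in E2A than in E2-2. Of the 680, 230 (33.8%) were called higher in E2A than in HEB and 5 lower: FLNC, ZSCAN10, NPTXR, ADRA2B and CCL4L2. Against E2-2, 62 (9.12%) were called higher in E2A and 150 (22.1%) lower. VWA5B2, for example, was 1.71-fold above HEB in E2A, with 656 and 359 reads, and 4.55-fold (4.18 to 4.97) below E2-2. CHRD had 164 reads in E2A, 37 in HEB and 1708 in E2-2. Of the 220 genes called lower, none was called higher and 28 (12.7%) lower in E2A than in HEB, while against E2-2 17 (7.73%) were higher and 22 (10.0%) lower in E2A.

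In 51 genes, 0.367% of those measured, the E2A level was called higher than in each of the other 3 libraries. TCF3 was 1 of them, and LRRC15, SSX1, TTLL10, TNFRSF18, ASS1, NPTX1 and TMCO3 were others. ASS1 in E2A was 9.22-fold (7.59 to 11.3) above HEB and 4.10-fold (3.55 to 4.74) above E2-2, and NPTX1 2.82-fold (2.73 to 2.92) and 5.78-fold (5.52 to 6.05). SORCS2 and COL18A1, chosen after their values were seen, were also of this kind. SORCS2, a sorting receptor, had 3 reads in vector, 120 in E2A, 9 in HEB and 3 in E2-2, and COL18A1, a basement membrane collagen, 47, 588, 129 and 105.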

How the data were processed

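The authors deposited 1 table of whole-number read counts per Ensembl gene, with FPKM values by the authors beside them per the file headers. Per the submitters' processing notes, TopHat2 (2.0.9) and HTSeq (0.9.1) were among the tools and hg19 and hg38 the builds, with no roles given. The annotation, the read length and any use of strand have no statement in the sources used here, so overlapping, antisense and near-identical genes are uncertain. Positions match GRCh38: 12972 of 12985 measured genes matched by name overlap the RefSeq gene.

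TMM factors over all 4 libraries came from edgeR 4.0.16, run under R 4.3.3. Folds have 95% Clopper-Pearson intervals of the conditional binomial (scipy 1.17.1, numpy 2.4.6 and pandas 2.3.3 in Python 3.11.15; figures by matplotlib 3.10.9). Intervals and the 3-read floor cover counting error only. The calling step was tested on simulated data that held counting error alone, so that test says nothing of differences between cultures. The members and gene lists were chosen with earlier results of these data known. Named genes are the E protein and ID genes, genes among the 25 highest and 25 lowest by interval bound and the 10 largest CPM gains and losses, called members of lists and of leading KEGG and GO terms (at most 6 each), genes of runs of 4 or more neighbors, and genes called opposite ways between factors. Clone-named genes were passed over in rankings, and any other gene named was chosen after its values were seen. Alternatives were DESeq2 1.42.0 size factors, summed counts, TMM over 2 libraries, FPKM, other thresholds and other windows. ChIP libraries were not analysed here, and results for some genes are not reported here.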

Additional observations from a re-analysis of the deposited data

Results flagged for a closer look

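SH3TC1 and MMRN1 were called in opposite directions by E2A and by another E protein against the same vector library, and the difference between the factors was not tested across samples, since each has 1 library. Over all measured genes, 1.22% were called lower in HEB than in vector and 7.12% higher in E2-2. SH3TC1 had 72 reads in vector, 406 in E2A, 37 in HEB and 479 in E2-2, a log2 fold of 2.32 in E2A and -1.05 in HEB. MMRN1, which codes for multimerin 1, had 20, 10, 13 and 43 reads, a log2 fold of -1.18 in E2A and 1.15 in E2-2. The counts of MMRN1 are low, and its interval for E2A, 1.01-fold to 5.42-fold lower, nearly reaches 1.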

How the results depend on the processing

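With 1 library per group, differences between cultures cannot be told apart from the factors, and no library could be left out. No paired analysis was possible because each group has 1 library and no test was run. Scaling by DESeq2 size factors or by summed counts called 700 genes higher and 211 lower, and the 680 and 211 were shared with the reported calls. TMM over the 2 libraries gave 680 and 220 and FPKM without intervals 715 and 219. These scalings moved the median of all measured genes by at most 0.01. Without a filter on low counts 1000 genes were called higher and 388 lower, and with at least 100 reads 390 and 88. A fold of 1.5 gave 1169 and 697, and a fold of 3 gave 373 and 27. Protein-coding genes alone gave 548 and 136. Groups of neighbors numbered 19 higher and 3 lower at a gap of 50 kb and 35 and 5 at 250 kb. In the 250 bases before the start alone, CAGCTG stood in 19.5% of windows of genes called higher, 14.9% of those called lower and 12.5% of all measured. CAGGTG stood in 26.8%, 17.9% and 15.7% in the same order. With at least 100 reads, CAGGTG stood in 27.0% of windows of genes called higher, 22.4% of those called lower and 17.4% of all measured. Folds of the 244 named genes kept their direction under the 3 other scalings of counts, as did the 226 with an FPKM ratio under FPKM. The other 18 had an FPKM of 0 in vector. Of 68 list and term medians, with at least 100 reads 1 moved beyond its counting interval, that of the T and NK cell genes, from -0.63 over 5 genes to 0.53. Low counts limit genes near 0 in vector, whose ratios have wide intervals.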

Other observations

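RN7SK, the RNA that holds the elongation factor P-TEFb inactive, had 28 reads in vector, 180 in E2A, 44 in HEB and 33 in E2-2, 5.68-fold (3.80 to 8.78) higher in E2A than in vector. RN7SK was the only measured snRNA of the RefSeq classes. The only measured scRNA was also called higher in E2A, at a log2 fold of 1.82. RN7SK was singled out after its values were seen, and the library preparation's part in this count was not tested. S100P, a calcium-binding protein, had 73 reads in vector, 226 in E2A, 45 in HEB and 52 in E2-2, 2.73-fold (2.09 to 3.61) above vector in E2A. Its levels in HEB and E2-2 lay below vector. ALDH1L2, a mitochondrial enzyme of folate metabolism, had 620, 1967, 757 and 560 reads, 2.80-fold (2.56 to 3.07) in E2A. SARDH and its neighbors DBH and DBH-AS1 on chromosome 9 were each called higher, DBH with 5 reads in vector and 60 in E2A, 10.6-fold (4.30 to 33.8). All 3 had under 30 reads in vector and so were measured through their reads in E2A. DBH and DBH-AS1 overlap, so their reads may not be told apart.

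By RefSeq class, 548 of 11706 protein-coding genes (4.68%) and 42 of 707 long non-coding genes (5.94%) were called higher, and 136 (1.16%) and 30 (4.24%) lower. Of 15 measured variable segments 8 were called higher, but 11 had under 30 reads in vector and were measured through E2A. Of the other 4, 1 was called higher. Genes known by a clone identifier made up 63 of the 680 called higher and 53 of the 220 called lower. Their share among all measured genes is not given here, so these counts are not read as a result.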
